A study of Capra hircus with 2 samples.

Results

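Large oocytes were the cell barcodes that held 20000 or more UMIs (unique molecular identifiers, each counting 1 captured RNA molecule), at least 3 of the germ cell markers FIGLA, DDX4, DAZL, MAEL, LHX8 and REC8, and a summed count of these 6 genes of at least 1 per 1000 UMIs. They numbered 99 of 12743 barcodes in goat (Capra hircus) fetal ovary, 22 of 4397 at stage E85 and 77 of 8346 at stage E125, where E stands for embryonic day. Measured values thus chose the members, and UMI totals and the levels of the 6 markers are given as descriptions. The study compared female ovaries of both stages by droplet single-cell RNA sequencing around the assembly of primordial follicles. No treatment, genotype or breed was labelled, and the labels do not say how many animals gave each library or whether they were pooled. Both samples are labelled as ovary and female, although the extraction protocol filed with them describes the digestion of testes. With 1 library per stage no test was possible, and every difference below describes these libraries.

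An oocyte of the fetal ovary enters meiosis, pairs and recombines its chromosomes in prophase, and then arrests at the diplotene stage inside a primordial follicle. While it does so it grows and begins to store messenger RNA and protein for use after fertilisation. FIGLA and LHX8 are transcription factors of this programme, the ZP genes encode the glycoproteins of the egg coat, and the piRNA pathway, to which DDX4 and MAEL belong, silences transposons in the germ line. REC8 is a subunit of the meiotic cohesin that holds sister chromatids together, and DAZL is an RNA-binding regulator of germ cell translation.

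The 22 large oocytes of E85 held 8.68% of all UMIs of their library (1540726 of 17748948) and the 77 of E125 held 20.5% (10202749 of 49692252). They were 0.500% of barcodes at E85 (95% exact binomial interval 0.314 to 0.757) and 0.923% at E125 (0.729 to 1.15). These intervals, and those of ratios below, cover counting error only. UMIs per droplet ran from 21059 through a median of 56360 to 214449 at E85, and from 22029 through 127644 to 283741 at E125. The other barcodes had medians of 2981 and 3018 UMIs. The 3 largest droplets held 32.6% of the large-oocyte UMIs at E85, where they were 3 of 22, and 7.99% at E125, where they were 3 of 77. With such unlike numbers of droplets, these shares do not compare how evenly depth was spread. The libraries shared 13 barcode sequences, of which 1 was a member in either library.

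Not every large barcode was an oocyte. Of 52 barcodes with 20000 or more UMIs at E85, 30 were no members, and of 284 at E125, 207 were none. The members with the lowest marker sums stood at 1.70 and 1.72 per 1000 UMIs at E85 and at 1.03 and 1.07 at E125. The non-members with the highest sums stood at 0.212 at E85 and at 0.879 and 0.792 at E125, so the limit fell in a wide gap at E85 and between close values at E125. Just under the UMI limit were germ cell droplets of 19062 and 18443 UMIs at E85 and of 18088 and 17618 at E125. Droplets under 20000 UMIs that met the marker part of the rule numbered 36 and 52.

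**Figure D1:**
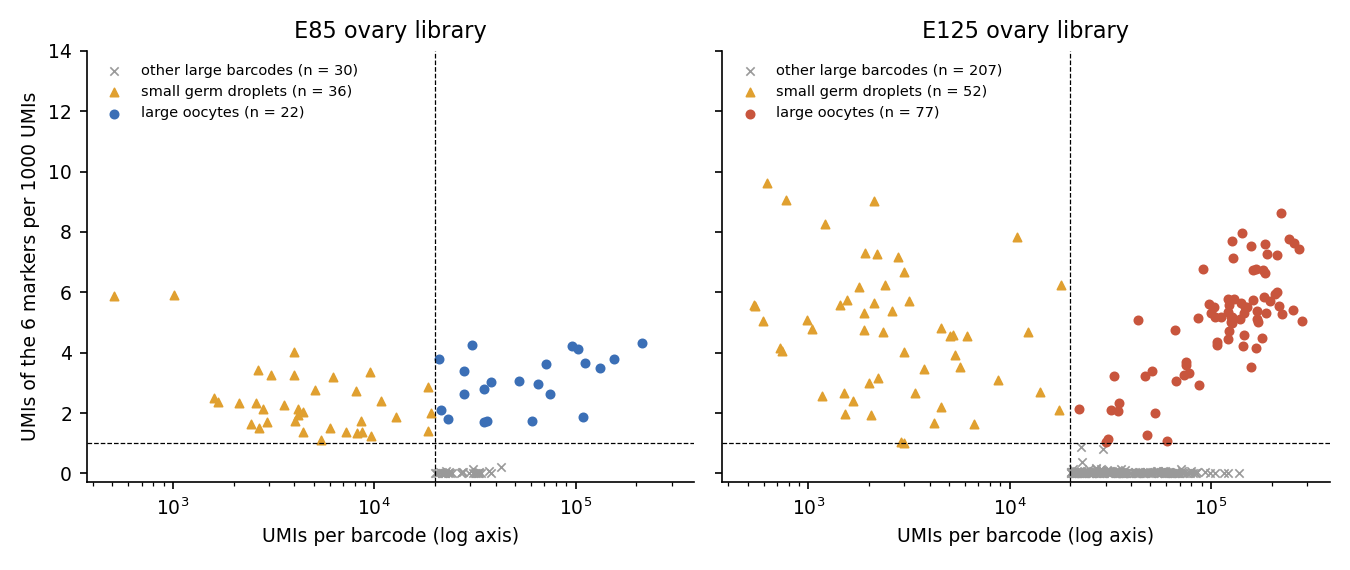
UMIs per barcode (horizontal, log axis) against summed UMIs of the 6 germ cell markers per 1000 UMIs (vertical) in the E85 (left) and E125 (right) libraries; points are single barcodes, coloured as large oocytes, smaller germ cell droplets and other large barcodes. The 22 and 77 large oocytes lie above 1 marker UMI per 1000 and right of 20000 UMIs, and at E85 the nearest large barcode below lies at 0.212.

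The label was checked with oocyte genes that the rule did not use. To set aside depth, each large barcode was thinned to 20000 UMIs, and the share with at least 1 UMI was set beside that of the large non-members, whose depth before thinning was 27118 (E85) and 34793 UMIs (E125) at the median. ZP3, a zona pellucida glycoprotein, was present in 95.5% of E85 members against 10% of non-members, and in 100% of E125 members against 40.6%. NPM2, the histone chaperone nucleoplasmin 2 of eggs, was in 59.1% against 0% at E85 and 94.8% against 2.42% at E125. The 0 of 30 non-members allows a share with a UMI of up to 10% by the limit of 3 counts, and its exact interval reaches 11.6%. STK31, a germ cell kinase-like protein with a tudor domain, was in all members of both stages against 3.33% and 6.28%. SYCP3, a lateral element of the synaptonemal complex that joins paired chromosomes, was in 68.2% and 48.1% of members and in 0% of non-members of either stage. These genes marked the members in both libraries.

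Some genes with known germ cell roles were also found in many large non-members. SYCP1, the transverse filament of the same complex, was in 22.7% of E85 and 29.9% of E125 members against 26.7% and 38.2% of large non-members, and it is not used as a marker here. UCHL1, a deubiquitinase abundant in oocytes and neurons, was in all members but also in 80% and 77.3% of non-members. REC8, a rule marker, was in 68.2% of E85 members and 100% of E125 members, with 23.3% and 20.8% among non-members.

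Markers of other cell types were low in the large oocytes but not all at 0. Of 46 markers of pregranulosa, stromal, endothelial, perivascular, myeloid, lymphoid, erythroid and surface epithelial cells, 30 had at least 1 UMI at E85 and 39 at E125, and 38 and 40 had a lower level than in the other barcodes. Their summed level had a median of 0.262 UMIs per 1000 at E85 (range 0.0828 to 1.53) and 0.897 at E125 (0.179 to 3.55). Large non-members had medians of 3.04 and 2.81 and all other barcodes 4.96 and 5.39. The pregranulosa genes AMH and WNT4 had 0 UMIs at E85 and 4 and 5 at E125, FST had 3 and 51, and RGS5, TYROBP, CD3E, UPK1B and LGALS2 had 0 in both stages. The stromal gene DCN had 107 and 1018 UMIs. The perivascular genes MYH11 and NOTCH3 had 595 and 255 UMIs at E125, in 76 and 67 of the droplets. KRT19 and KRT7, keratins counted here as pregranulosa and surface epithelial markers, were among the exceptions, with 2584 and 1842 UMIs at E125. KRT19 stood at 253 CPM there (the UMIs of a gene per 1000000 UMIs of the droplets summed), against 24.1 in the other barcodes. All pregranulosa markers together stood at 459 CPM at E125 and 273 at E85, where KRT19 was at 128.5. KRT7 made up the whole surface epithelial sum, 180.5 CPM at E125 and 22.7 at E85. The summed level above thus includes keratins that were higher in large oocytes than in the other barcodes. CSF1R, ALAS2, AHSP and HBM were also above the other barcodes at E125, and GATM was close to them (65.5 against 68.8). RGS5, TYROBP, CD3E, UPK1B and LGALS2 reached at most 7.55 CPM in the other barcodes, so their 0 says little. At equal depth KRT19 was in 90.9% of E125 members against 17.4% of large non-members and KRT7 in 88.3% against 25.1%. No barcode was removed as a doublet here, and the part of other cells' RNA in the results was not tested.

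Set against all other barcodes of the same library, large oocytes differed over a broad share of the transcriptome. Genes with 50 or more UMIs over both sets were compared, and a gene was called at 2-fold. At E85, 2859 of 10109 genes (28.3%) were higher and 2725 (27%) lower in large oocytes, and at E125, 3636 of 12891 (28.2%) were higher and 4432 (34.4%) lower. Since the droplets were chosen on their own counts, these folds describe the class and are no test.

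The genes highest over the other barcodes at E85, apart from the rule markers, were led by ABCC2, an organic anion exporter (84.7-fold), NPM2 (82.4-fold), SALL4, a zinc finger factor of germ and pluripotent cells (80-fold), and DRC7, a subunit of the dynein regulatory complex of cilia (78.9-fold). CCNO (cyclin O) followed at 78-fold and TLE6, a member of the subcortical maternal complex, at 76.2-fold. MOS, the kinase that holds mature eggs in metaphase arrest, was 75.4-fold higher, KPNA7, the importin alpha of oocytes, 71.4-fold, and ZP2 65-fold. The rest of the 15 highest were MYH15, GALNT14, SGPP2, RPGRIP1, ZGLP1 and GTF2A1L, between 63.5-fold and 76.1-fold. At E125 NPM2 (99.3-fold), CCNO (97.7-fold), KPNA7 (75.5-fold) and GTF2A1L (71.5-fold) again stood among the 15 highest. Beside them were the homeobox genes DBX1 (102-fold) and LHX1 (84.9-fold), the forkhead gene FOXR1 (74.6-fold), SAXO1 (71.9-fold), IZUMO1R, the egg receptor for the sperm protein IZUMO1 (71.4-fold), GDF3 (70.5-fold), ACTL7B (70.2-fold) and ZAR1, an RNA-binding maternal factor (69.7-fold). AMN, B3GNT4 and C1orf194 stood at 76.8-fold, 94.4-fold and 90.2-fold. Germ cell droplets under 20000 UMIs are among the other barcodes and lower these folds.

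The E85 large oocytes were not uniform. REC8 was at 0 UMIs in 7 of the 22 droplets and between 159 and 2075 CPM in the other 15, while all 77 E125 droplets had REC8 (143 to 1487 CPM). This split was made after the values were seen, on a gene that the rule itself used, so it is described and given no name. The 7 droplets without REC8 held 21388 to 65092 UMIs (median 35253) and the 15 with it 21059 to 214449 (median 74417). Mitochondrially encoded genes took 5.41% to 17.4% of UMIs without REC8 (median 10.9%) and 0.319% to 12.6% with it (median 4.51%). Markers of other cell types were at a median of 0.137 UMIs per 1000 without REC8 and 0.264 with it. At 20000 UMIs the droplets showed medians of 4081 and 4094 genes. The share of mitochondrial UMIs and the droplet size thus moved with the split, and their part in it was not tested.

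The egg coat genes followed the split. ZP3 ran from 93.5 to 3037 CPM in the 7 droplets without REC8 and from 0 to 21986 CPM in the 15 with it, and summed to 1000 against 10892 CPM, 10.9-fold lower without REC8. ZP4 was at 0 in all 7 and had 2222 UMIs in the others, which puts it at least 162-fold lower. ZP2 was 8.86-fold lower. The ranges of ZP3 overlapped only through 2 of the droplets with REC8, at 0 and 1545 CPM. Over the 22 droplets ZP4 was found in 9, namely the 7 largest and those of 52334 and 30718 UMIs.

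Genes of the egg cytoplasm moved with them. NPM2 summed to 32.5 CPM without REC8 and 594 with it, 18.3-fold lower without (95% interval 9.58 to 40.2). CCNB2, the B-type cyclin that partners CDK1, was 18.5-fold lower, and GSTM3, a glutathione transferase, 12-fold lower. UCHL1 stood at 527 against 1652 CPM. F2, the gene of prothrombin, had 5 UMIs without REC8 and 925 with it, 40.6-fold lower. CRYBB3, H2BE1, RARRES2, MYH7B, TAC3, MYH15, CST6 and TRPM3 completed the 12 lowest, each with 1 to 4 UMIs in the 7 droplets. FIGLA was 397 against 833 CPM, a 2.1-fold gap, whereas LHX8 was 0.767 of its level with REC8 and was not called.

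Single genes of meiotic prophase were higher without REC8. TEX12, a central element of the synaptonemal complex, was 4.38-fold higher without REC8, SPATA22, which binds single-stranded DNA in recombination, 3.15-fold, and TRIP13, the ATPase that removes HORMA proteins from paired axes, 8.11-fold (95% interval 4.96 to 13.5). Of the 48 TRIP13 UMIs in the 7 droplets, however, 31 came from the 1 droplet of 65092 UMIs. SPO11, the enzyme that makes meiotic double-strand breaks, had 11 of its 12 UMIs in the 7 droplets. DDX4 was at 527 against 316 CPM, below the 2-fold limit. The others among the 12 highest were ARRDC4 (9.96-fold), PRPF39, GALNT7, ASH1L, SPEN, SYNE2 (6.63-fold), SETD2, APC, BIRC6, PIK3C2A and AKAP9 (5.18-fold). ASH1L, SPEN and SETD2 are chromatin regulators, SYNE2 ties the nuclear envelope to the cytoskeleton, and AKAP9 is a centrosomal anchor protein.

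**Figure D2:**
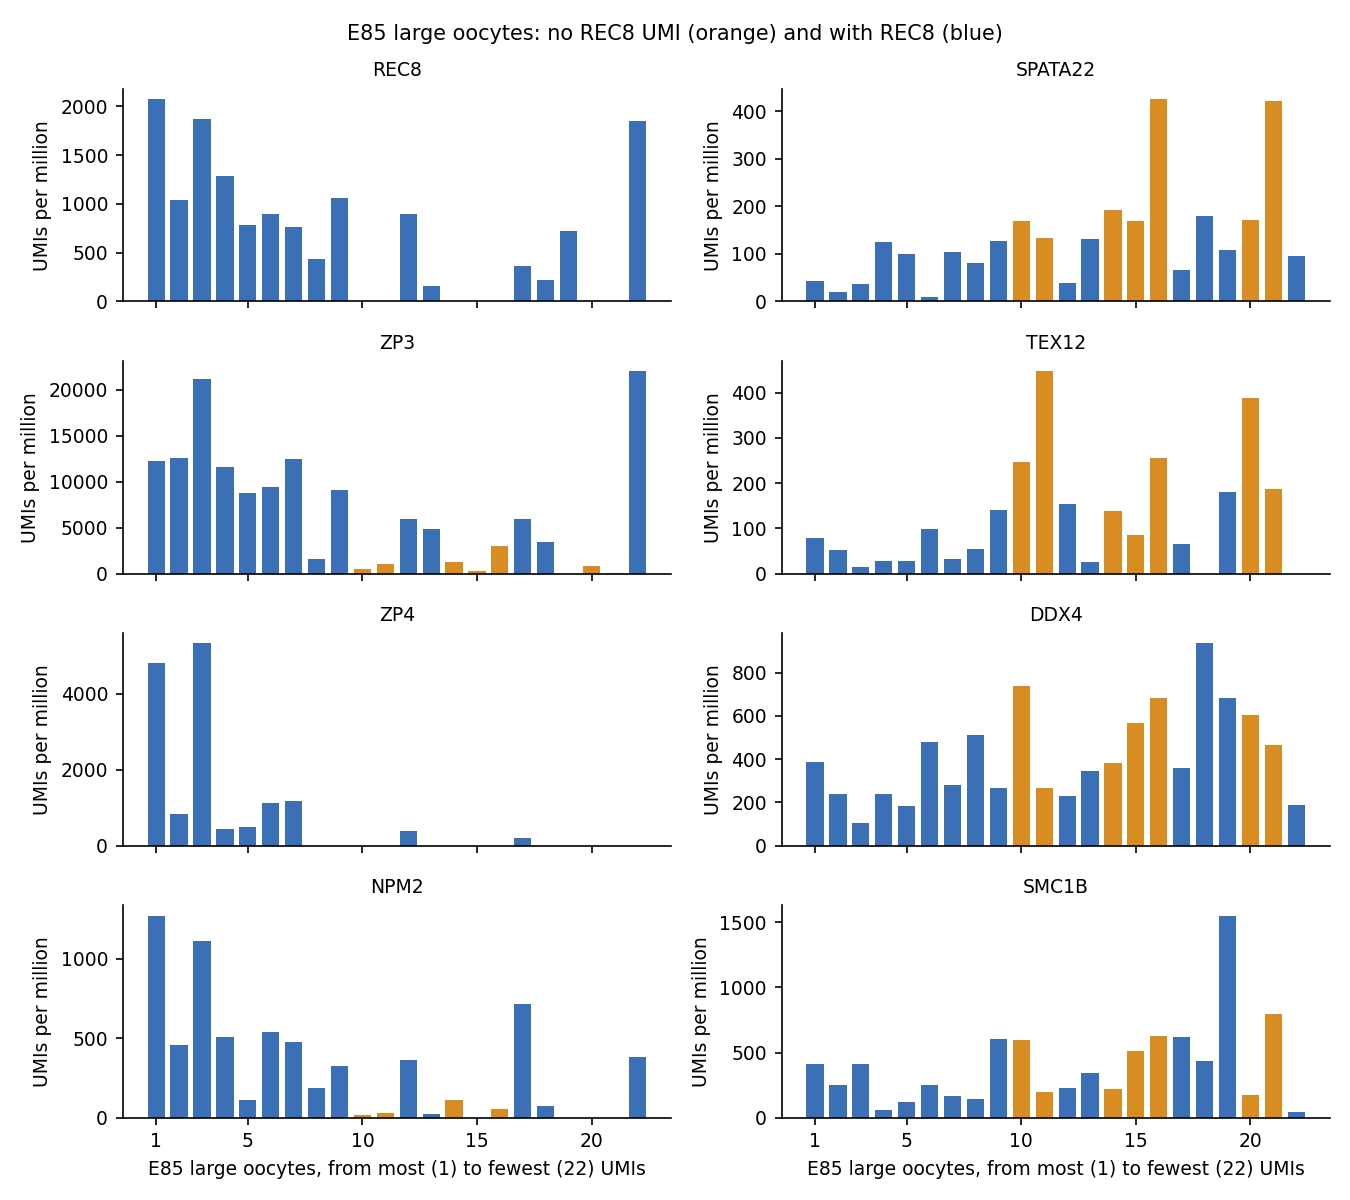
CPM (vertical) of REC8, ZP3, ZP4, NPM2, SPATA22, TEX12, DDX4 and SMC1B in each of the 22 E85 large oocytes, ordered from most to fewest UMIs (horizontal); each bar is 1 droplet and orange marks droplets with no REC8 UMI. The 7 orange droplets have no ZP4 and at most 3037 CPM of ZP3, while SPATA22 and TEX12 are present in each of them.

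Counted over all genes with 50 or more UMIs in the E85 droplets, 476 of 3903 (12.2%) were at least 2-fold higher without REC8 and 702 (18%) at least 2-fold lower. The 7 droplets without REC8 held 277007 UMIs and the 15 with it 1263719. A gene found only in the 7 thus needed a higher CPM to pass the filter. Beside these shares of all genes, all 3 zona genes compared and 7 of 8 maternal effect genes were lower, none higher. In the piRNA pathway 3 of 9 were higher and 0 lower, in the synaptonemal complex 3 of 6 higher and 1 lower, and among meiotic arrest and maturation genes 0 of 8 higher and 4 lower. Of 7 recombination genes 2 were higher and 1 lower, and of 4 genes of meiotic entry 0 were higher and 3 lower, so prophase genes did not move one way. Of 11 mitochondrially encoded genes 8 were higher. In droplets of 20000 to 70000 UMIs, which held all 7 without REC8 and 6 with it, 184 of 1655 genes were higher and 117 lower. ZP3 was then 6.25-fold lower, NPM2 8.11-fold, ZP2 3.23-fold and ZP4 at least 12.2-fold lower without REC8, and TEX12 3.25-fold, SPATA22 2.25-fold and TRIP13 8.56-fold higher. The TRIP13 value again rested on 1 droplet, with 31 of the 48 UMIs found without REC8.

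Single E85 droplets stood apart from the rest. A droplet of 27748 UMIs with REC8 had no FIGLA or ZP3 UMI and 1 LHX8 UMI, but held 16 of the 21 STRA8 UMIs of the 22 droplets and 27 of the 48 SYCP1 UMIs. STRA8 is the retinoic acid-induced gene of meiotic entry. The same droplet had the highest values of the cohesin genes SMC1B (1550 CPM) and SMC3 (3171 CPM) and of HELLS (1910 CPM), a chromatin remodeller. The smallest droplet, of 21059 UMIs, had the highest ZP3 (21986 CPM), 1852 CPM of REC8 and 2912 genes, the fewest of all. The droplets of 132840 and 109076 UMIs had 13723 and 2934 CPM of CST3, the gene of the secreted protease inhibitor cystatin C, where no other exceeded 427, and 79 and 129 UMIs of pregranulosa markers. KRT19 gave 57 and 50 of these marker UMIs. Over the E85 large oocytes KRT19 stood at 128.5 CPM, above the 99.5 of the other barcodes.

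Between the stages, E125 large oocytes were compared with E85 large oocytes on the summed UMIs, again with 50 or more UMIs and a 2-fold limit. The E125 droplets held 10202749 UMIs and those of E85 1540726. A gene found only at E85 thus needed a higher CPM to pass the filter, and genes found only at E125 passed it more easily. Of 8989 genes, 1715 (19.1%) were higher at E125 and 1646 (18.3%) lower, with a median log2 ratio of -0.09 over all of them. Scaling by the TMM factors of edgeR moved that median to 0.02 and the calls to 1929 higher and 1374 lower, and fold changes below are relative to plain UMI totals. In the other barcodes of the same libraries the median for these genes was 0.06, and 877 of the higher and 411 of the lower genes passed 2-fold there in the same direction. Another 40 and 34 passed it in the opposite direction. The quartile ranges over droplets were apart for 966 genes higher at E125 (10.7%) and 516 lower (5.74%). Droplet sizes differed between the stages, so the comparison was repeated for droplets of 20000 to 70000 UMIs (13 at E85, 15 at E125) and for larger ones (9 and 62). All 7 E85 droplets without REC8 were in the smaller range.

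**Figure D3:**
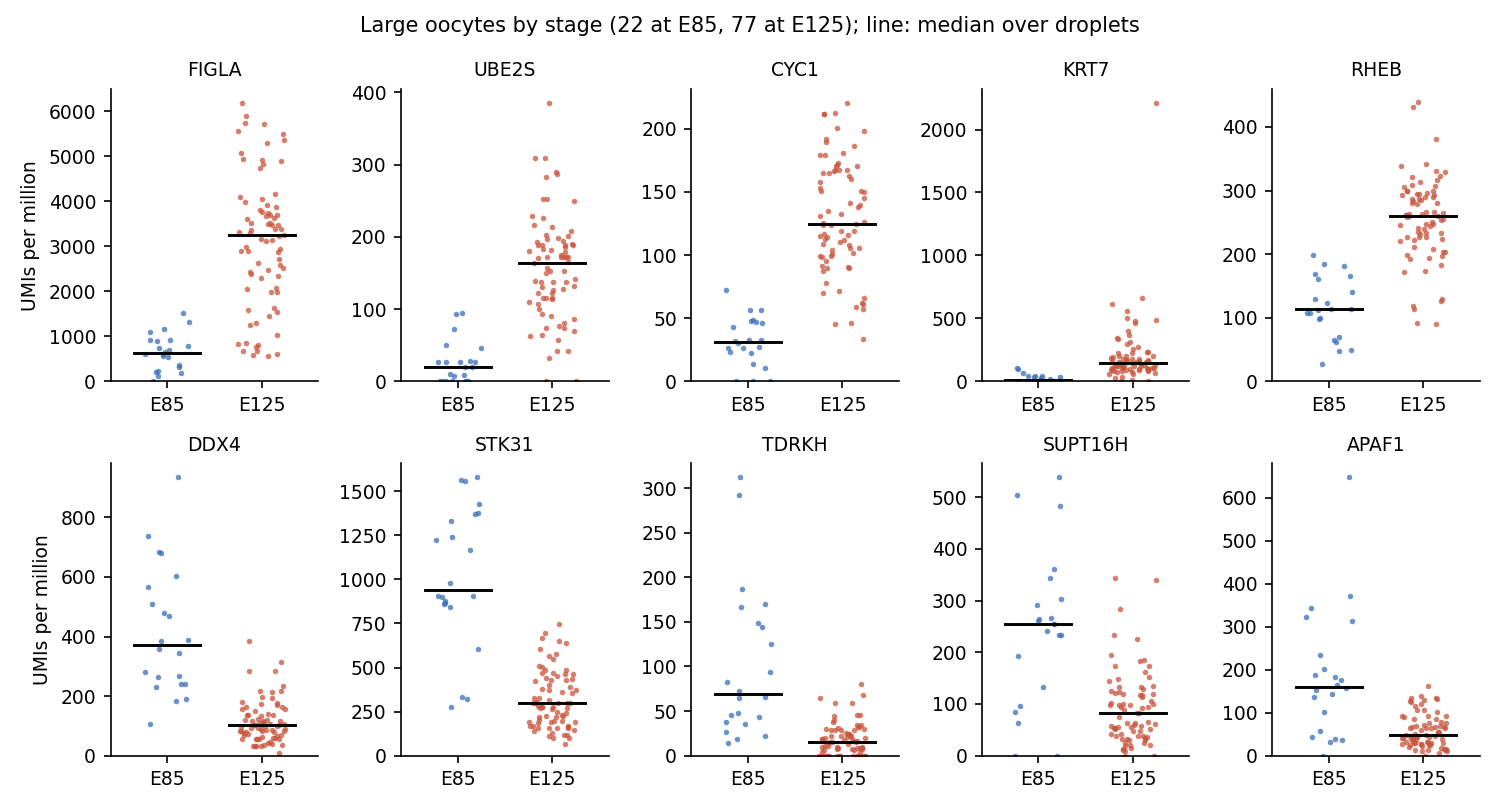
CPM per droplet (vertical, one panel per gene) in the 22 E85 and 77 E125 large oocytes; points are droplets and the line is the median. FIGLA, UBE2S, CYC1, KRT7 and RHEB sit higher at E125 and DDX4, STK31, TDRKH, SUPT16H and APAF1 lower, each with some overlap between droplets.

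Among 6 oocyte transcription factor genes compared, 3 were higher at E125 and 1 lower, where 19.1% and 18.3% of all genes were. FIGLA and LHX8, counted here, helped to choose the droplets, so their levels describe the class. FIGLA ran from 0 through a median of 636 to 1513 CPM at E85 and from 566 through 3250 to 6189 CPM at E125. The ranges overlapped, but 64 of 77 E125 droplets lay above every E85 droplet. Its summed level was 4.77-fold higher (4.50 to 5.07) against 2.42-fold in the other barcodes, but 2.59-fold in droplets of 20000 to 70000 UMIs and 4.36-fold in larger ones. LHX8, in contrast, had medians of 606 and 599 CPM and a ratio of 1.05 (0.976 to 1.12). HES7 had no UMI in the E85 droplets and 2063 in those of E125, at least 104-fold higher. TAF4B, a gonadal subunit of the TFIID complex, was 2.08-fold lower.

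No zona gene passed 2-fold. ZP3 had a median of 5381 CPM at E85 and 8141 at E125, and its summed level differed 1.05-fold (1.03 to 1.07). ZP4 was at 0 in 13 of the 22 E85 droplets and above 90.4 CPM in each E125 droplet, with a ratio of sums of 1.13. The likeness of the sums rested on the largest E85 droplets. In droplets of 20000 to 70000 UMIs ZP4 was 15.2-fold (10.3 to 23.5), ZP2 2.11-fold and ZP3 1.79-fold higher at E125, while in larger ones the ratios were 0.818, 0.991 and 0.834. The median log2 ratio of the 4 zona genes was 0.26, and 1.93 without the 3 largest droplets of each library.

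Maternal effect genes, whose products act in the egg and early embryo, were mostly alike in sum. Of 10 compared, 2 were higher, near the 19.1% of all genes, and 0 lower, where 18.3% of all genes were. The higher ones were ZAR1 at 5.44-fold (3.87 to 7.89) and NLRP9 at 4.06-fold (2.39 to 7.49). NPM2 ran from 0 through 149 to 1273 CPM at E85 and from 20.7 through 457 to 997 CPM at E125, with a ratio of sums of 1.04 (0.963 to 1.12). OOEP and TLE6 of the subcortical maternal complex were at 1.15 and 1.21, PADI6 at 0.744 and UCHL1 at 1.06. UCHL1 was 0.403 of its E85 level in the smaller droplets and 1.02 in the larger ones. MOS was 1.69-fold higher in sum, 4.28-fold in the smaller droplets and 1.29-fold in the larger.

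Secreted factors and their receptors gave 8 higher and 1 lower of 14, where 19.1% and 18.3% of all genes were. Their median log2 ratio was 1.51 against 0.75 in the other barcodes. It was 2.81 in droplets of 20000 to 70000 UMIs (6 genes) and 0.96, under 2-fold, in larger ones. BMP15, an oocyte ligand that acts on granulosa cells, had 14 UMIs at E85 and 347 at E125, 3.74-fold higher (2.20 to 6.92). Its partner GDF9 had 19 and 42 UMIs and was 3-fold lower (1.65 to 5.27), but at 20000 UMIs it was found in 9.09% of the droplets of either stage (2 of 22 and 7 of 77). BDNF was 3.84-fold and PDGFA 2.54-fold higher. AMN, the partner of the endocytic receptor cubilin, did not overlap between stages, with at most 33.1 CPM in E85 droplets and at least 84.7 in those of E125. KISS1, the kisspeptin gene, was at 0 in the E85 droplets and had 1943 UMIs in those of E125, at least 97.8-fold higher. KIT, the receptor tyrosine kinase of oocytes, was at 0.851 in sum, yet 3.29-fold higher at E125 in the smaller droplets and 0.668 of its E85 level in the larger ones.

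At the oocyte surface 1 of 12 genes was higher, IZUMO1R at 3.07-fold (2.74 to 3.45), and 1 lower, CTNNB1 (beta-catenin) at 2.48-fold. Of 17 genes of meiotic arrest and maturation, 4 were higher and 1 lower. Over all genes 19.1% were higher and 18.3% lower, so the higher genes of this list were near that share. FZR1, the activator of the anaphase-promoting complex that helps to hold prophase arrest, was 2.29-fold higher and FBXO5, an inhibitor of the same complex, 3.26-fold lower. NPPC had 0 UMIs at E85 and 139 at E125. The kinase AURKA was 1.53-fold higher and CCNB2 stood at 0.996.

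The piRNA pathway was lower at E125. Of 15 genes 0 were higher and 10 lower, where 19.1% and 18.3% of all genes were. The median log2 ratio was -1.33 against -0.84 in the other barcodes, which hold the smaller germ cell droplets. DDX4 and MAEL, counted in this list, helped to choose the droplets, so their levels describe the class. DDX4 ran from 105 through 371 to 936 CPM at E85 and from 8.21 through 102 to 386 CPM at E125, 3.21-fold lower (2.90 to 3.56). Of the 77 E125 droplets 76 lay below the E85 median and 41 below every E85 droplet. TDRD1, TDRKH and ASZ1, which take part in piRNA processing at the intermitochondrial granules, were 3.43-fold, 5.11-fold and 5.65-fold lower. PIWIL1, a piRNA-binding protein, was 2.53-fold lower, while PIWIL2 (1.57-fold lower), MAEL, GPAT2, FKBP6 and MYBL1 did not pass. DDX4, TDRD1 and TDRKH were also lower in both size ranges, DDX4 at 0.232 and 0.373 of its E85 level. MAEL depended on size, at 0.457 in the smaller droplets and 1.03 in the larger.

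Genes of the meiotic chromosome axis were lower or near their E85 level. In the synaptonemal complex 4 of 9 were lower and 0 higher, where 18.3% and 19.1% of all genes were. The median log2 ratio was -0.83 against -1.06 in the other barcodes. With only the E85 droplets that had REC8 and FIGLA, 1 of 8 was lower and 1 higher. Over all 8872 genes compared there, 1363 were lower and 1702 higher. Droplets of more than 70000 UMIs also gave 1 lower and 1 higher of 8, beside 1413 lower and 1465 higher of all 8634 genes. TEX12 had medians of 82.2 and 27.2 CPM and was 3.25-fold lower, SYCE1 4.86-fold and SYCE2 2.75-fold. SYCP3, with medians of 45 and 26.5 CPM, was 1.66-fold lower and did not pass. SYCP1 passed at 2.44-fold lower, but 27 of its 48 E85 UMIs came from 1 droplet. TEX12 was 0.0652 of its E85 level in the smaller droplets and 0.551 in the larger.

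Of 7 genes of cohesin, its protector SGO2 and meiotic RNA regulators, 3 were lower, where 18.3% of all genes were. With only the E85 droplets that had REC8 and FIGLA, 1 of the 7 was lower. SMC3, a core cohesin subunit, was 2.61-fold lower, MEIOC, a meiosis-specific RNA-binding partner, 3.48-fold and YTHDC2, an RNA helicase that binds it, 2.45-fold. For SMC3, 1 E85 droplet stood at 3171 CPM. REC8 was at 0.81 and SMC1B at 0.754. The other members, SGO2 and STAG3, were 1.79-fold and 1.88-fold lower and did not pass. DDX4, DAZL, FIGLA, LHX8, MAEL and REC8 were used to choose the droplets, so their levels describe the class.

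Of the 9 recombination genes reported here, 3 were lower, where 18.3% of all genes were. MLH3, which acts in crossover formation, was 2.6-fold lower. SPATA22 ran from 9.78 through 117 to 426 CPM at E85 and from 0 through 23 to 119 at E125, 3.6-fold lower. BRCA2, a mediator of homologous recombination, was 2.69-fold lower in sum, with a ratio of 0.981 in the smaller droplets and 0.336 in the larger. REC114, HSF2BP and MND1 were at 1.03, 0.899 and 0.648.

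Of 19 regulators of stored messenger RNA, 3 were higher and 6 lower, where 19.1% and 18.3% of all genes were. They had a median log2 ratio of -0.87 in large oocytes and 0.39 in the other barcodes. STK31 ran from 275 through 942 to 1583 CPM at E85 and from 66.5 through 297 to 744 at E125, 3.17-fold lower (2.97 to 3.37). All 77 E125 droplets lay below the E85 median and 36 below every E85 droplet. DAZL, which helped to choose the droplets, was 2.32-fold lower. CNOT7, a deadenylase of the CCR4-NOT complex, was 3.22-fold lower and CNOT6L, the other catalytic subunit measured, 2.27-fold higher on 9 UMIs at E85. ELAVL2, a neuronal and oocyte RNA-binding protein, was 1.92-fold lower, just under the limit.

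**Figure D4:**
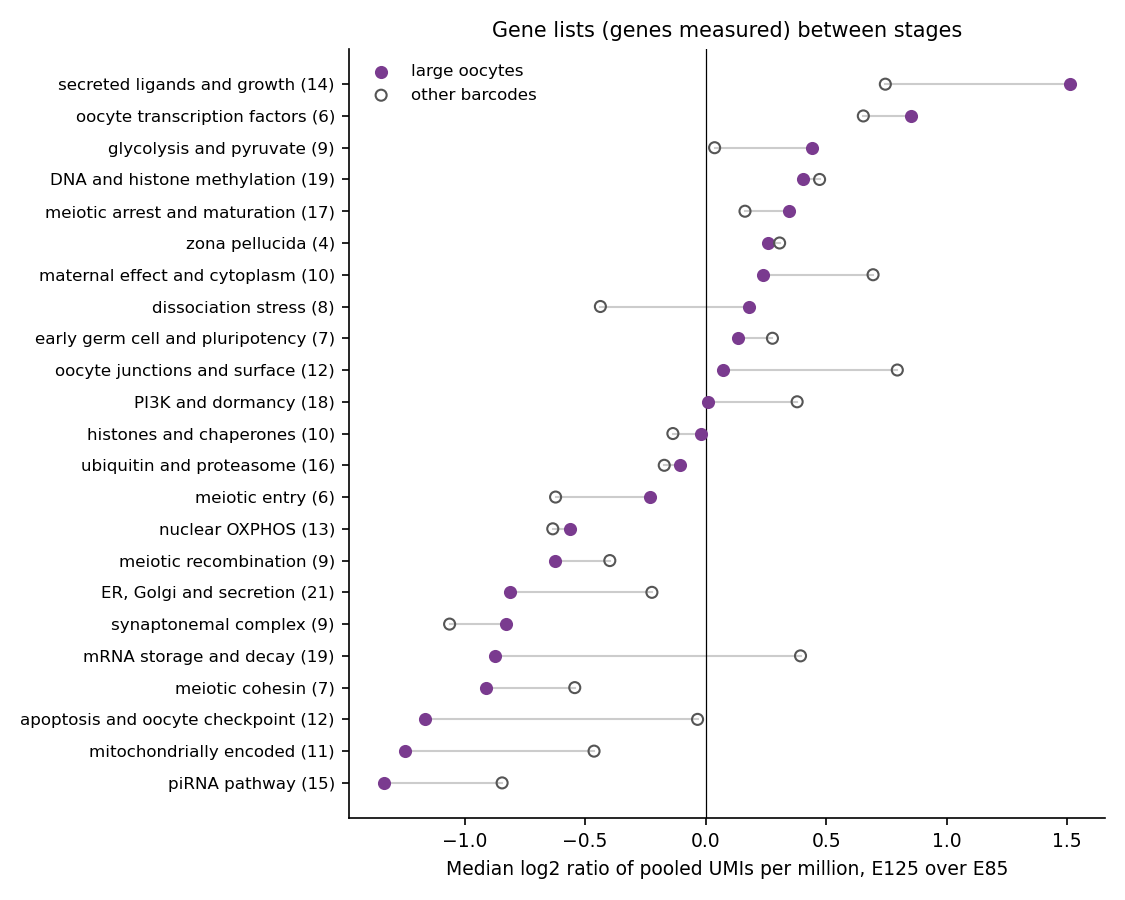
Median log2 ratio of E125 over E85 (horizontal) for each gene list (vertical), in large oocytes (filled) and in the other barcodes of the same libraries (open). The piRNA list lies at -1.33 and -0.84, the list of apoptosis genes at -1.17 and -0.03, the RNA storage list at -0.87 and 0.39, and the ligand list at 1.51 and 0.75.

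Apoptosis and checkpoint genes had 7 of 12 lower and 1 higher, where 18.3% and 19.1% of all genes were. The median log2 ratio was -1.17 against -0.03 in the other barcodes. APAF1, the core of the apoptosome, ran from 0 through 161 to 648 CPM at E85 and from 0 through 47.3 to 163 at E125, 3.1-fold lower, with 76 of 77 E125 droplets below the E85 median. BAX, a pore-forming effector, was 3.78-fold lower and XIAP, a caspase inhibitor, 4.81-fold lower, so genes that favour and oppose cell death were both lower. The damage kinases ATM and ATR were 3.02-fold and 3.88-fold lower. BCL2L11, which encodes the BH3-only protein BIM, was 3.93-fold higher (2.42 to 6.80). In the smaller droplets 3 genes of the list passed the count limit, 1 higher and 1 lower, and CDKN1A turned from 2.07-fold lower to a log2 ratio of 0.40. The median log2 ratio of the list fell short of 2-fold with equal droplet weight (-0.788) and without the 3 largest droplets of each library (-0.881). It also did at 20000 thinned UMIs (-0.533, with 2 higher and 1 lower of 6). Leaving out droplets with the highest share of markers of other cell types gave -0.98. Apart from the smaller droplets, the other settings gave -1.06 to -1.3.

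Of 18 genes of the PI3K and mTOR pathway, which sets growth signalling, 2 were higher and 4 lower, against 19.1% and 18.3% of all genes. RHEB, the GTPase that activates mTOR complex 1, had medians of 113 and 260 CPM and was 2.17-fold higher, with 64 of 77 E125 droplets above every E85 droplet, and PKD1 5.8-fold higher on 7 UMIs at E85. RICTOR, of mTOR complex 2, and RPS6KB1, the S6 kinase, were 3.93-fold and 3.84-fold lower, PIK3CB 3.31-fold and DDIT4 5.57-fold. FOXO1, a transcription factor restrained by this pathway, was 1.76-fold higher and did not pass.

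In chromatin, 5 of 19 genes of DNA and histone methylation were higher and 2 lower, against 19.1% and 18.3% of all genes. UHRF2 was 3.53-fold, KDM1B, the histone demethylase needed for imprints in oocytes, 2.52-fold and KMT2B 3.77-fold higher. HELLS was 2.98-fold lower, with 1 E85 droplet at 1910 CPM. Among histone and chaperone genes 0 of 10 were higher and 3 lower. SUPT16H, of the FACT complex, ran from 0 through 255 to 539 CPM at E85 and from 0 through 82.5 to 344 at E125, 2.72-fold lower, while its partner SSRP1 was at 1.29. H1-8, the oocyte linker histone, was 1.62-fold higher.

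Energy genes were mixed, beside 19.1% of all genes higher and 18.3% lower. Of 13 nuclear genes of oxidative phosphorylation 1 was higher and 4 lower. CYC1, cytochrome c1 of complex III, had medians of 31.5 and 124 CPM and was 4.64-fold higher (3.45 to 6.39), with 67 of 77 E125 droplets above every E85 droplet. The complex III genes UQCRFS1 and UQCRC1 were 3.78-fold and 2.25-fold lower, COX8A 3.73-fold lower, and NDUFB9 stood at 1.02. Of 9 glycolytic genes 2 were higher and 1 lower, and PKM was 1.8-fold higher without passing.

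Mitochondrially encoded genes were lower in sum. Of 11 compared 0 were higher and 7 lower, where 19.1% and 18.3% of all genes were. The median log2 ratio was -1.25 against -0.46 in the other barcodes. ND4 ran from 233 through 5827 to 17720 CPM at E85 and from 91.6 through 1167 to 21336 at E125, 3.59-fold lower, and ND4L was 7.16-fold lower. The ranges overlapped almost wholly, with 70 of 77 E125 droplets below the E85 median. In droplets of 20000 to 70000 UMIs 1 of the 11 was higher and 1 lower, with a median log2 ratio of -0.13, and in larger ones 6 were lower. ND1 turned from 2.11-fold lower to a log2 ratio of 0.22 in the smaller droplets.

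Genes of the endoplasmic reticulum, Golgi and secretory path had 9 of 21 lower and 0 higher, with a median log2 ratio of -0.81 against -0.22. PDIA3, a disulfide isomerase, had medians of 480 and 188 CPM and was 2.79-fold lower, and TMED2, a cargo receptor of transport vesicles, 4.15-fold. SSR3 and SEC61A1, of the translocon, were 1.88-fold and 1.98-fold higher, under the limit. Of 16 ubiquitin and proteasome genes 2 were higher and 2 lower, below the 19.1% and 18.3% of all genes. UBE2S, the chain-extending ubiquitin enzyme of the anaphase-promoting complex, had 28 and 1740 UMIs in the E85 and E125 droplets. It was 9.38-fold higher (6.47 to 14.2) against 6.57-fold in the other barcodes, with 3.19-fold in the smaller and 14.4-fold in the larger droplets. CUL4A was 5.16-fold higher.

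Of 8 genes that respond to dissociation 2 were higher and 2 lower, near the shares of all genes (19.1% and 18.3%). JUN had 23 UMIs at E85 and 1247 at E125, 8.19-fold higher against 6.48-fold in the other barcodes, and DUSP1 3.46-fold. HSPA8 was 3.71-fold lower and HSPH1 2.39-fold lower. The part of handling in the stage differences was not tested, and with 1 library per stage it cannot be told apart from stage. KRT7 was 7.95-fold higher (5.69 to 11.5) in large oocytes at E125 and KRT19 stood at 128 and 253 CPM.

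Ranked over all genes with a symbol, at least 50 CPM in 1 stage and quartile ranges apart, the 12 highest at E125 were C4orf48, HES7, KISS1, ANKRD9, NKX6-2, DBX1, AMN, CCDC3, NKX1-1, PODXL2, SH2B2 and CHCHD10. Of these, 3 are homeobox genes, and 10 had 3 or fewer UMIs in the E85 droplets. All 12 also passed 2-fold in the other barcodes, C4orf48 at 52.1-fold, PODXL2 at 32.8-fold and CHCHD10 at 13.2-fold. Those barcodes include the smaller germ cell droplets, and the part of oocyte RNA in their rise was not tested. At 20000 UMIs KISS1 was in 93.5% of E125 members and 6.28% of large non-members, and HES7 in 66.2% and 3.38%. SH2B2, a signalling adaptor, had 3 UMIs in E85 droplets and 593 in those of E125, a ratio of 29.9 (10.2 to 145). CHCHD10, a mitochondrial protein, had 10 and 1956, a ratio of 29.5 (16 to 61.7). C4orf48 and AMN were the members of this set whose droplet ranges did not overlap. The 12 lowest were TUBB2B, ND4L, PTBP2, TMEM38B, SNX4, CCP110, PDCD4, XPOT, AP1AR, APRT, LSM5 and SRP14. LSM5, of the U6 RNA-binding ring, had medians of 188 and 28.9 CPM and was 5.31-fold lower. AP1AR and SRP14 were 5.7-fold and 5.3-fold lower. In the other barcodes 4 of the 12 passed 2-fold lower.

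Within a stage, gene levels moved with droplet size. Counts were thinned to 20000 UMIs per droplet and ranked against the UMIs of the droplet before thinning. These correlations share the library and the total that defines the class, and are given as descriptions. At E85 (22 droplets) ZP4 had the highest Spearman coefficient of 448 genes ranked, 0.745, with a mean of 0.667 thinned UMIs in the 6 smallest droplets and 45.3 in the 6 largest. AURKA followed at 0.743. DDX4 (-0.525) and HSPA8 (-0.532) were among the 12 lowest, from 10 to 4 and from 13 to 6.5 thinned UMIs.

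At E125 (77 droplets, 471 genes) the highest coefficients were those of UXT (0.748), CD164L2 (0.742) and TAF10 (0.692). FIGLA stood at 0.651, with a mean of 28.4 thinned UMIs in the smallest 20 droplets and 83.9 in the largest 20. The lowest were CYTB and COX1 (-0.680 each), and the share of mitochondrial UMIs itself had -0.656 at E125 and -0.430 at E85. SYNE2, higher in the E85 droplets without REC8, was at -0.563. CD164L2, FOXR1 and the mitochondrial genes CYTB, ND3, ND5 and ATP6 were among the 12 with the strongest coefficients of one sign in both libraries. In both stages larger droplets thus held more CD164L2 and FOXR1 and less of these mitochondrial transcripts.

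**Figure D5:**
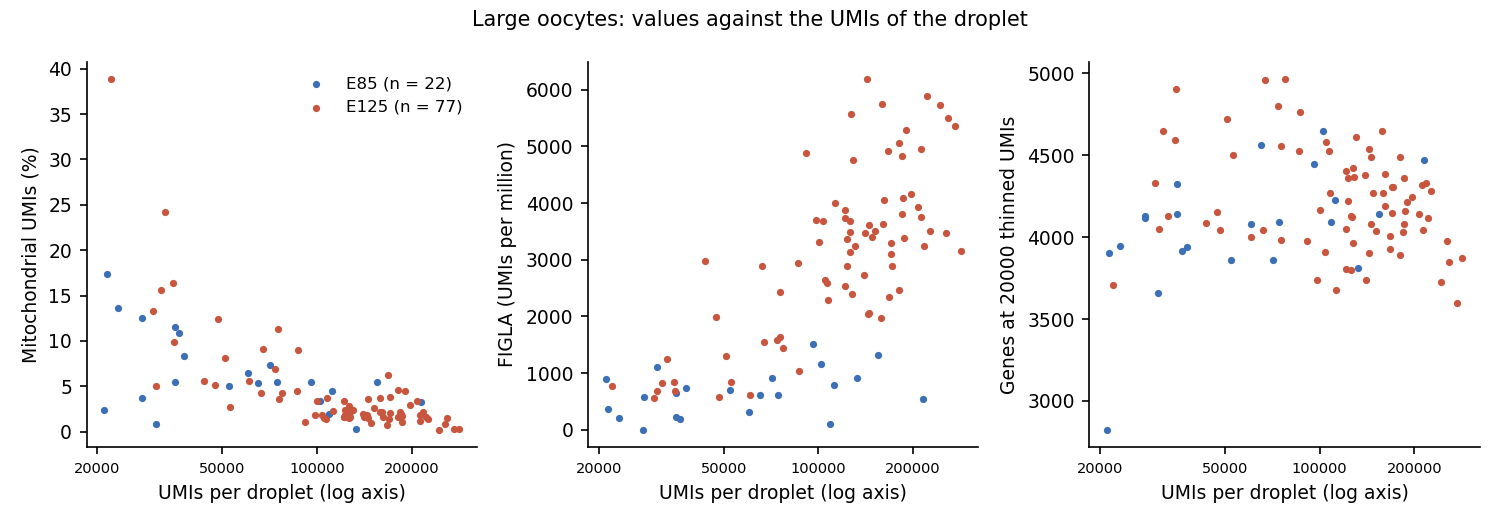
Share of mitochondrial UMIs in percent, FIGLA CPM and genes detected at 20000 thinned UMIs (vertical, 3 panels) against UMIs per droplet (horizontal, log axis) for the 22 E85 and 77 E125 large oocytes; points are droplets. The mitochondrial share declines with size in both stages, FIGLA climbs with size at E125, and genes at equal depth have medians of 4092 and 4163.

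Genes detected at equal depth differed little between the stages, with medians of 4092 at E85 and 4163 at E125, and large non-members had 3734 and 3763. Without thinning the medians were 6014 and 8465. The mitochondrial share ran from 0.319% through a median of 5.43% to 17.4% in the E85 droplets and from 0.208% through 2.21% to 38.9% in those of E125.

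The smaller germ cell droplets were also summed by stage. Over the 36 and 52 droplets, FIGLA was at 457 CPM at E85 and 2373 at E125, DDX4 at 398 and 247, and ZP3 at 4827 and 6570. FIGLA and DDX4 helped to choose these droplets too, so their levels describe the class. For ZP3 the large oocytes gave no single direction over the size ranges. MYH15 and SGPP2, 2.12-fold and 2.11-fold lower at E125 in large oocytes, went from 31.7 to 85.7 CPM and from 58.8 to 75.6 in the smaller droplets. These sums rest on few UMIs and are given without intervals, so no direction is read from SGPP2. Median sizes in this class, 4298 UMIs at E85 and 2280 at E125, lie far below those of the large oocytes, so these values carry more counting error per droplet.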

How the data were processed

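Goat fetal ovary was measured by single-cell RNA sequencing in 1 library at E85 and 1 at E125, grouped by the stage label. The authors deposited whole UMI counts per gene and barcode, with no normalization and no mean or fitted values. Per the labels' protocols the 10x 3' chemistry was version 3.1, and UMI counts are not divided by gene length, so levels are compared between droplets and not between genes. Per the submitters' processing notes Cell Ranger 3.1 was used, but per the file headers version 6.0.0. A genome build is not given in the sources used here. Symbols came from the deposited files, and features without one held 33% and 32.2% of large-oocyte UMIs at E85 and E125 and were kept in totals.

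Members, gene lists and comparisons were chosen with earlier results of these data known. UMIs were summed over droplets of a class and divided by the class total. Genes with 50 or more UMIs in both classes together were compared and called at 2-fold, with counts of 3 or fewer set to 3 for the call. A fold against 0 UMIs is given as at least that against 3 UMIs in the class sum. Sums and ratios carry exact 95% intervals (Poisson, and conditional binomial for ratios) and shares carry Clopper-Pearson intervals. They cover counting error, since PCR copies were removed by UMIs but animals were not replicated. No test across droplets was run. Some genes of the recombination list are not reported here, and its counts leave them out. For shares, gene numbers and size ranks, droplets were thinned to 20000 UMIs.

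Named genes were the members of the lists, the 15 highest over other barcodes in each library (100 CPM or more, rule markers left out), the 12 highest and 12 lowest between stages (50 CPM or more in 1 stage, quartile ranges apart), the 10 most variable at thinned depth (mean of 5 or more) and the 10 of highest CPM. The split on REC8, the single droplets named and the size ranges were chosen after values were seen. Doublets were not removed in the main comparison. An alternative left out the 155 and 557 barcodes with the highest Scrublet scores, 0 and 2 of them members. Other alternatives changed the membership limits, the scaling, the weighting and the filters. Python 3.11.15, numpy 2.4.6, scipy 1.17.1, pandas 2.3.3, scanpy 1.11.5, matplotlib 3.10.9 and R 4.3.3 were used, with edgeR 4.0.16 and DESeq2 1.42.0 for scaling factors only. The scripts were tested on simulated data.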

Additional observations from a re-analysis of the deposited data

How the results depend on the processing

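Intervals cover counting error only, and with 1 library per stage no difference can be set against a spread between animals. No paired analysis was possible because each stage has 1 library. A minimum of 40000 UMIs left 12 large oocytes at E85, while limits of 5 markers or of 20% mitochondrial UMIs left 22 there. Against 1715 genes higher and 1646 lower at E125, thinning every droplet to 20000 UMIs gave 941 and 692 of 4526 genes, and droplets of 20000 to 70000 UMIs gave 732 and 672 of 3401. A minimum of 10 summed UMIs gave 2698 lower genes and a minimum of 1 gave 3276, with 1864 higher in both. With counts of 3 or fewer set to 3, a gene needs 40 UMIs at E125 to be called higher, so these minimums could add lower genes below that but no higher ones. Scaling by edgeR, DESeq2 or equal droplet weight gave 1929, 1901 and 2204 higher and 1374, 1406 and 1594 lower. Without the E85 droplets that lacked REC8, 1696 were higher and 1412 lower. Between E85 droplets without and with REC8, the counts of 476 and 702 became 184 and 117 within 20000 to 70000 UMIs. Values past 2-fold changed sign in droplets of 20000 to 70000 UMIs for the apoptosis list (median log2 ratio 0.40, 3 genes), CDKN1A (0.40) and ND1 (0.22), and for the stromal gene OGN with equal weights (0.21) and without the 3 largest droplets (0.26). For OGN the cause was not tested. The median log2 ratio of the zona list became 1.04 with equal weights. Of the other values for lists, 364 stayed on their side of 2-fold, 20 passed it and 10 no longer did. Of these, 32 in 9 lists changed sign, and with all droplets the median log2 ratios of these lists were within 0.26 of 0. The size ranges and the settings on REC8 were chosen after seeing the data.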

Other observations

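The genes most variable among large oocytes at 20000 thinned UMIs were ranked among those with a mean of 5 or more. The 10 highest at E85 were the mitochondrially encoded COX3, ND2, COX1, CYTB, ND4 and COX2, the secreted CST3, the zona genes ZP3 and ZP4, and SYNE2. At E125 they were the mitochondrially encoded COX3, COX1, COX2, CYTB, ND2, ND4, ND1 and ND3, with CST3 and ZP3. The variance of ZP3 over its mean was 131 at E85 and 30.9 at E125. Summed CPM was highest at E85 for COX3, ZP3, COX1 and COX2, and at E125 for RPS13, ZP3, RPL32 and FTH1. Counts are not divided by gene length, so this order ranks captured molecules.

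CSF1R, counted here as a myeloid marker, had 117 UMIs in 53 of the 77 E125 large oocytes (11.5 CPM against 1.19 in the other barcodes), while TYROBP had 0 and C1QA 3. AHSP and HBM, counted as erythroid markers, had 97 and 52 UMIs there, above the level of the other barcodes (9.51 against 1.32 CPM and 5.10 against 0.0507). JAG1, a Notch ligand, had medians of 432 CPM at E85 and 225 at E125 and a ratio of 0.681. POU5F1, the pluripotency factor, was in 36.4% of E85 and 27.3% of E125 large oocytes at 20000 UMIs and in 0% of large non-members of either stage.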
